A study of Mus musculus with 6 samples.

Results

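In the hippocampus of the mouse, 10 genes of the regulated secretory pathway were followed, namely the granins *Chga*, *Chgb*, *Scg2*, *Scg3* and *Vgf*, the convertase partners *Scg5* and *Pcsk1n*, and the processing enzymes *Pcsk1*, *Pcsk2* and *Cpe*. They are listed by name for their part in dense-core vesicles, with no measured value in the rule but with earlier results of these data known, and are 10 of the 25239 genes listed in the count files. RNA-seq was performed on hippocampus from 3 WT (Ube3am+/p+) and 3 Ube3am-/p+ male mice in the C57BL/6 strain, aged 6 to 8 weeks, with 1 library per mouse. Ube3am-/p+ mice lack a working maternal copy of *Ube3a*, the ubiquitin ligase gene whose maternal loss underlies Angelman syndrome, and keep the paternal copy, which most neurons silence and other cells still use. The sources used here name neither the *Ube3a* allele nor any other genotype or treatment, and the tissue was whole hippocampus, so that all its cell types contribute.

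Neurons and endocrine cells store peptides in dense-core vesicles and release them on stimulation. Granins are acidic proteins that aggregate in the trans-Golgi network and help to form these vesicles, and several of them are cut into active peptides. Prohormones are first cleaved at pairs of basic residues by the convertases PC1/3 (*Pcsk1*) and PC2 (*Pcsk2*), and carboxypeptidase E (*Cpe*) then removes the basic residues left at the ends. ProSAAS (*Pcsk1n*) inhibits PC1/3, and 7B2 (*Scg5*) binds pro-PC2, which needs it to become active. In the hippocampus these proteins serve the peptide stores of interneurons, dentate granule cells and pyramidal neurons.

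The reads counted on genes ranged from 7293272 to 8675252 in WT libraries and from 8871052 to 11314409 in Ube3am-/p+ libraries. Values are given as CPM, the count of a gene scaled to the total gene count of its library. The targeted gene, *Ube3a*, had 132 ± 24.96 CPM in WT and 86.8 ± 8.78 CPM in Ube3am-/p+ mice (SD, n = 3 each) without overlap, and fell by 0.58 on the log2 scale (edgeR adjusted p = 0.0363). After the correction for GC content and length described further on, its value was -0.19 and no longer called (edgeR adjusted p = 0.255), and its exons overlap those of *Snhg14* on the opposite strand over 1803 bp. Its call was also lost without WT mouse 2, WT mouse 3, Ube3am-/p+ mouse 2 or Ube3am-/p+ mouse 3, at log2 fold changes of -0.53, -0.48, -0.54 and -0.54. The mice numbered 1 of both genotypes lay next to each other on the first principal component (-2.29 and -1.43). WT mice 2 and 3 lay on one side of them (20.2 and 29.6) and Ube3am-/p+ mice 2 and 3 on the other (-20.5 and -25.6). The labels do not say whether the mice came from separate litters, so that p-values measure the spread between these 6 mice alone.

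*Pcsk1n* was the only member whose expression differed between the genotypes by the test across all genes, and it was higher in Ube3am-/p+ mice. The granins *Chga*, *Chgb*, *Vgf* and *Scg2* and the PC2 partner *Scg5* had higher means in Ube3am-/p+ mice, *Pcsk1* and *Scg3* had lower means, and the means of *Cpe* and *Pcsk2* differed by less than the SD of Ube3am-/p+ mice, but none of these passed the test. Calls rest on edgeR's quasi-likelihood test, with a p adjusted by Benjamini and Hochberg under 0.05 and a change of more than 1.2-fold. All 10 members passed the filter on low counts and 1 was called, against 2.01% of the 14445 genes tested (1.02% for calls in its direction). At an unadjusted p below 0.05 there were 5 members, *Chga*, *Scg2*, *Vgf*, *Pcsk1* and *Pcsk1n*, against a background of 24.6%. WT and Ube3am-/p+ values were fully separate for 2 members, *Scg2* and *Pcsk1n*, against 25.0% of all genes tested (10.8% higher and 14.2% lower in Ube3am-/p+ mice, and both members were higher). The median log2 fold change was 0.175 over the members and 0.0025 over all genes tested, and 7 members had a positive and 3 a negative value. With DESeq2 in place of edgeR, *Chga* was called as well (adjusted p = 0.0154, DESeq2), against 9.70% of the genes given an adjusted p by that tool.

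**Figure D1:**
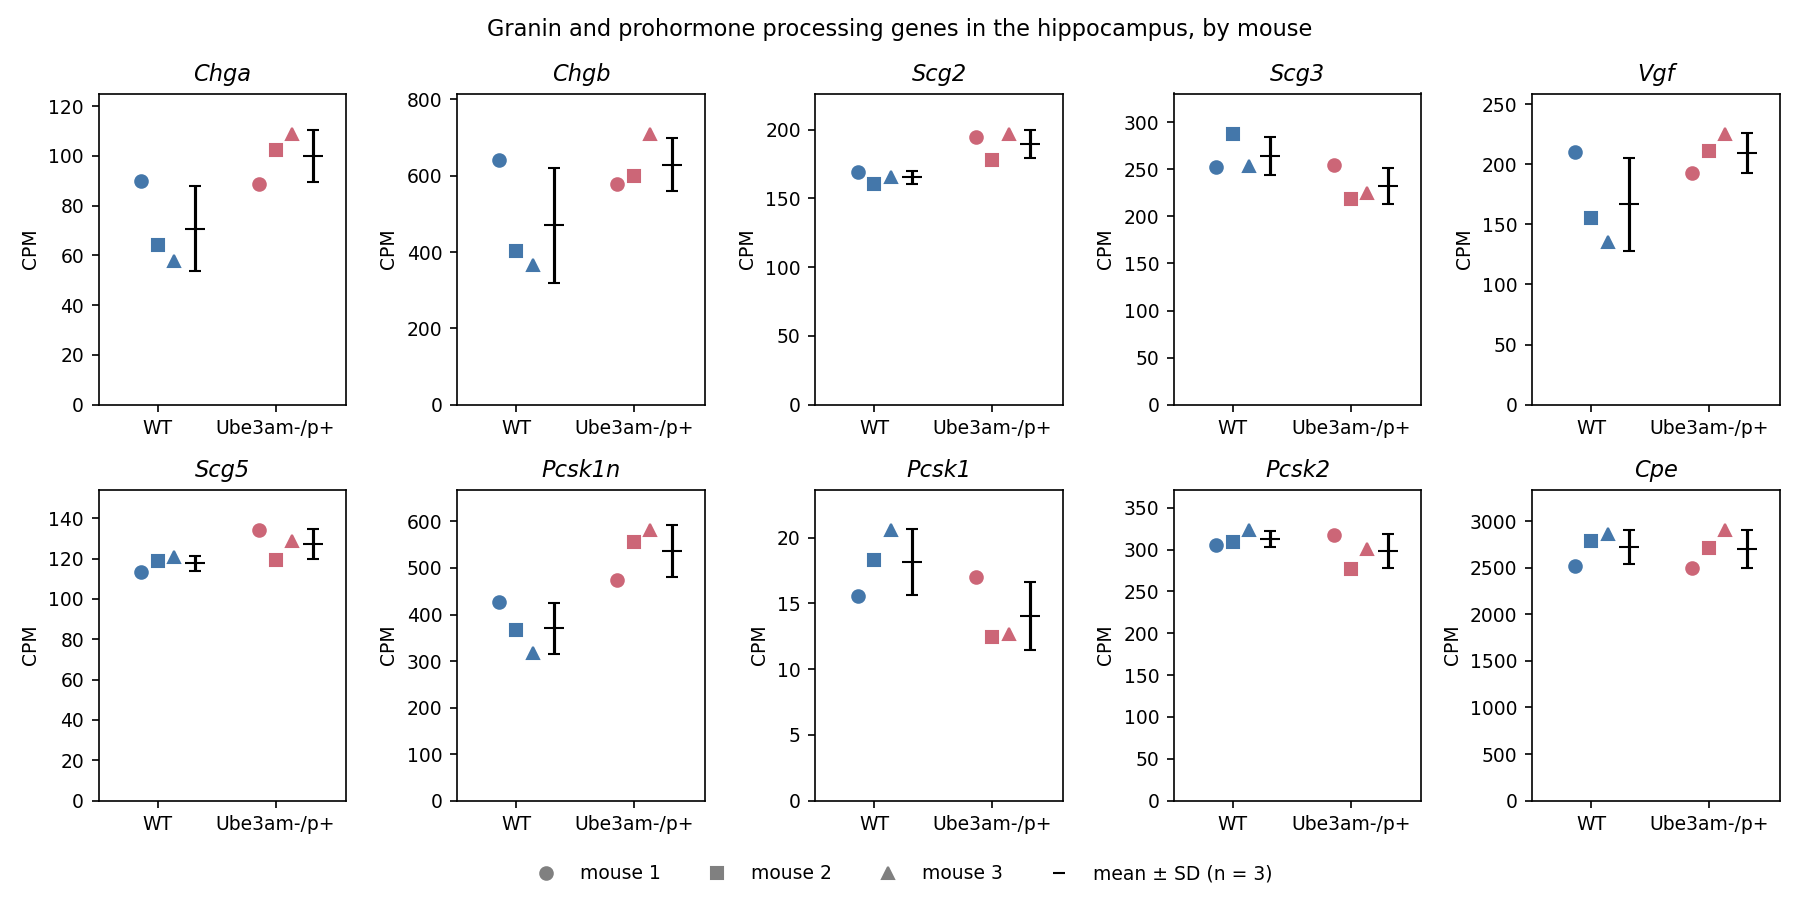
Expression of the 10 genes in each mouse, in CPM on the vertical axes, which start at 0, with symbols for mice 1, 2 and 3 of each genotype and bars for the mean ± SD (n = 3). The lowest Ube3am-/p+ value of *Pcsk1n* (474 CPM) lies above the highest WT value (427 CPM), while the values of *Chgb* and *Vgf* of WT mouse 1 lie among those of Ube3am-/p+ mice.

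The granins were examined first. *Chga* encodes chromogranin A, the prototype granin and a precursor of several peptides, and lies on chromosome 12 of GRCm38 from 102554969 to 102565028. It had 90.1, 64.3 and 57.9 CPM in WT mice 1, 2 and 3, and 88.6, 103 and 109 CPM in Ube3am-/p+ mice 1, 2 and 3. WT mouse 1 lay just above Ube3am-/p+ mouse 1, while the other WT mice were below every Ube3am-/p+ mouse. The means were 70.8 ± 17.1 and 100 ± 10.4 CPM (SD, n = 3 each), a ratio of 1.41. The log2 fold change fitted by edgeR after TMM scaling, here and for the genes that follow, was 0.52 ± 0.15 (SE), with an adjusted p of 0.0684. *Chga* was called without WT mouse 1 (0.73, edgeR adjusted p = 0.00112) and without Ube3am-/p+ mouse 1 (0.60, edgeR adjusted p = 0.0417). Calls were common in these fits, with 2582 of 14646 and 1816 of 14536 genes tested. For *Chga*, an exact permutation test of the 6 mice gave a two-sided p of 0.2, where the smallest that 3 mice against 3 allow is 0.1.

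*Chgb*, on chromosome 2 from 132781278 to 132795079, encodes chromogranin B, a further vesicle matrix protein. It had 642, 403 and 365 CPM in WT mice 1, 2 and 3, and 578, 600 and 709 CPM in Ube3am-/p+ mice. WT mouse 1 was higher than 2 of the 3 Ube3am-/p+ mice, and the other 2 WT mice lay well below all of them. Its log2 fold change, 0.44 ± 0.23 (SE), had the widest error of the 10 genes (edgeR adjusted p = 0.288). It was 0.73 and called without WT mouse 1 (edgeR adjusted p = 0.00103), and 0.28 without WT mouse 3. *Vgf*, on chromosome 5 from 137026392 to 137033351, encodes a neurotrophin-inducible precursor of neuropeptides. Its values were 210, 155 and 135 CPM in WT mice and 192, 211 and 225 CPM in Ube3am-/p+ mice, with a log2 fold change of 0.35 ± 0.14 (SE) and an edgeR adjusted p of 0.152. WT mouse 1 was above 1 of the 3 Ube3am-/p+ mice, and WT mice 2 and 3 were below them all. *Vgf* was at 0.55 and called without WT mouse 1 (edgeR adjusted p = 0.00232), and at 0.21 without WT mouse 3. The fit without WT mouse 1, in which *Chgb* and *Vgf* were called, called 2582 of the 14646 genes tested.

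*Scg2*, on chromosome 1 from 79434669 to 79440120, encodes secretogranin II, the precursor of secretoneurin. It had 170, 160 and 166 CPM in WT mice and 195, 178 and 197 CPM in Ube3am-/p+ mice. Every Ube3am-/p+ mouse was above every WT mouse, with a gap of 8.50 CPM between the groups, and the WT mice lay close together (165 ± 4.62 CPM, SD, n = 3). The log2 fold change of 0.22 (95% interval 0.04 to 0.39) had an adjusted p of 0.122 (edgeR), and its size was under the fold threshold of 1.2. *Scg3*, on chromosome 9 from 75643189 to 75684056, encodes secretogranin III, which tethers granin aggregates to the cholesterol-rich vesicle membrane. It was the only granin with a lower mean in Ube3am-/p+ mice. It had 252, 288 and 254 CPM in WT mice and 254, 219 and 225 CPM in Ube3am-/p+ mice, so that Ube3am-/p+ mouse 1 lay within the WT range, and the log2 fold change was -0.17 (95% interval -0.36 to 0.02, adjusted p = 0.249, edgeR).

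The convertase partners came next. *Pcsk1n*, the gene of proSAAS, lies on chromosome X from 7919822 to 7924410. It had 427, 366 and 317 CPM in WT mice 1, 2 and 3, and 474, 556 and 581 CPM in Ube3am-/p+ mice 1, 2 and 3, on 2315 to 6287 counts per library. Every Ube3am-/p+ mouse exceeded every WT mouse, with 47.5 CPM between the groups. The mean rose from 370.0 ± 54.7 to 537 ± 56.0 CPM (SD, n = 3 each), a ratio of 1.45. After TMM scaling edgeR's fitted fold was 1.47 (0.56 ± 0.11 SE on the log2 scale, adjusted p = 0.0362), and the exact permutation test gave p = 0.1, two-sided. The call was lost without WT mouse 2 (log2 fold change 0.55, adjusted p = 0.232, edgeR), without WT mouse 3 (0.45, adjusted p = 0.195), without Ube3am-/p+ mouse 2 (0.54, adjusted p = 0.251) and without Ube3am-/p+ mouse 3 (0.49, adjusted p = 0.136). In these 4 fits the number of genes called fell from 290 to 0, 0, 0 and 2. The call held without WT mouse 1 (0.67) and without Ube3am-/p+ mouse 1 (0.65). *Pcsk1n* shares 135 bp of exon with *Eras* on the opposite strand, and *Eras* had 3 counts in the 6 libraries.

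*Scg5*, the gene of 7B2, lies on chromosome 2 from 113776362 to 113829121. It had 113, 119 and 121 CPM in WT mice and 134, 119 and 129 CPM in Ube3am-/p+ mice. The lowest Ube3am-/p+ mouse lay within the WT range and the other 2 lay above it. The log2 fold change was 0.13 (95% interval -0.05 to 0.31, edgeR adjusted p = 0.344).

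Among the enzymes, *Pcsk1* was the least abundant of the 10 genes. It lies on chromosome 13 from 75089826 to 75134861 and had 15.6, 18.3 and 20.6 CPM in WT mice and 17.0, 12.5 and 12.6 CPM in Ube3am-/p+ mice. Ube3am-/p+ mice 2 and 3 lay below every WT mouse and Ube3am-/p+ mouse 1 within the WT range. These values rest on 132 to 159 counts per library, where counting alone gives an error of up to 8.70% of a value, and the difference was -0.36 ± 0.16 (SE) on the log2 scale (edgeR adjusted p = 0.182). *Pcsk2*, on chromosome 2 from 143546156 to 143816285, had 306, 309 and 323 CPM in WT mice and 318, 277 and 301 CPM in Ube3am-/p+ mice. Its log2 fold change was -0.05 (95% interval -0.22 to 0.12, adjusted p = 0.746, edgeR). Exons of *Pcsk2os1* and *Pcsk2os2* on the opposite strand overlap those of *Pcsk2* over 260 and 99 bp and had 2115 and 1886 counts in the 6 libraries, and it is not stated whether the counting used strands.

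*Cpe*, on chromosome 8 from 64592542 to 64693054, was 9th of all genes by mean WT CPM. It had 2513, 2786 and 2866 CPM in WT mice and 2491, 2706 and 2903 CPM in Ube3am-/p+ mice, with full overlap. The log2 fold change was 0.0073 (95% interval -0.18 to 0.19, adjusted p = 0.968, edgeR), and its sign depended on the scaling. *Cpe* supplied 52.5% to 62.0% of the reads of the 10 genes together. The 10 genes held 0.463% to 0.474% of the gene counts of WT libraries and 0.474% to 0.539% of those of Ube3am-/p+ libraries.

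**Figure D2:**
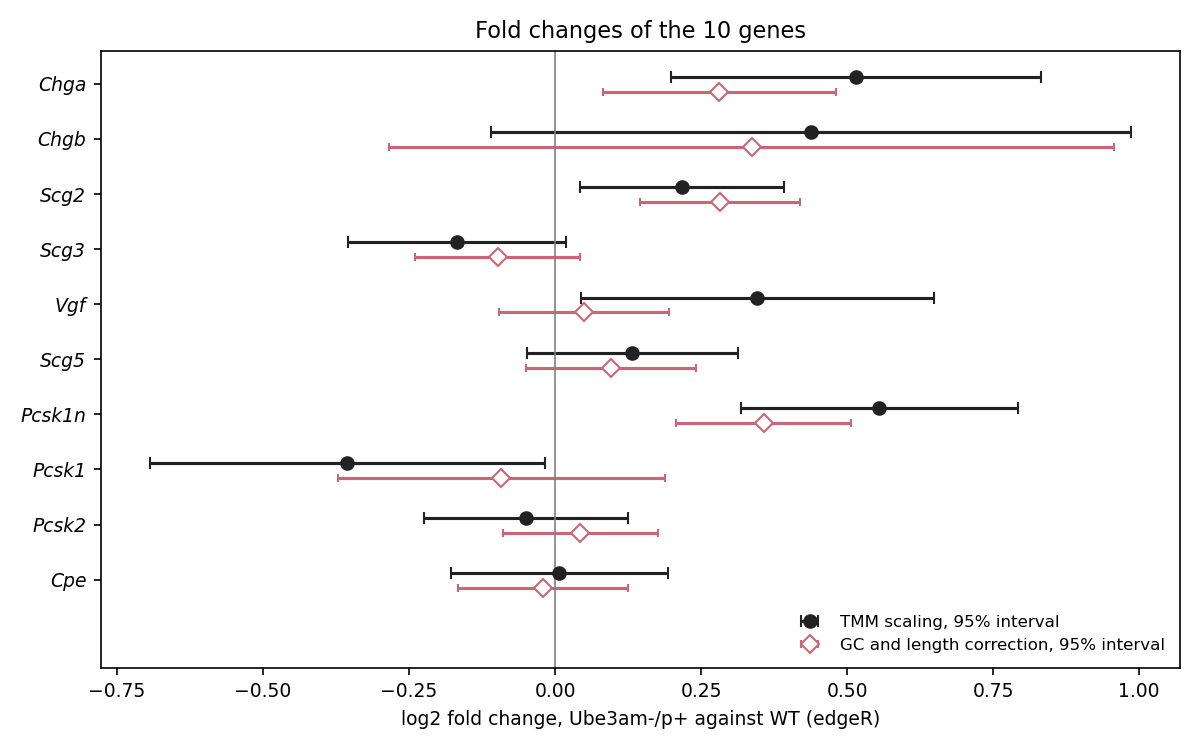
Log2 fold change of each gene between Ube3am-/p+ and WT mice (horizontal axis), with its 95% interval, after TMM scaling (filled circles) and after correction of each library for transcript GC content and length (open diamonds). The intervals of *Pcsk1n*, *Chga* and *Scg2* lie above 0 in both, while the value of *Vgf* moves from 0.35 to 0.05 and that of *Pcsk1* from -0.36 to -0.09. Intervals are not adjusted for the number of genes tested, and *Chga* and *Scg2* were called in neither fit.

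Levels of different genes were compared per kilobase of the longest annotated transcript (GENCODE M21). In WT mice *Cpe* came first with 1286 ± 87.3 CPM per kb (SD, n = 3). It was followed by *Chgb* (172 ± 54.8 CPM per kb) and *Pcsk1n* (169 ± 24.95 CPM per kb), whose values overlapped between mice. *Scg3* (111 ± 8.39 CPM per kb) and *Scg5* (97.3 ± 3.08 CPM per kb) came next, each with all WT mice above the following gene. *Pcsk2*, *Scg2*, *Vgf* and *Chga* followed with means of 66.2, 65.7, 58.8 and 37.6 CPM per kb, and neighbours in this order overlapped. *Pcsk1* was last with 3.60 ± 0.499 CPM per kb, below every other member in every WT mouse.

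The ratio of each convertase partner to its convertase was then taken within each library, a comparison chosen after the values were seen. There were 27.4, 19.96 and 15.4 reads of *Pcsk1n* per read of *Pcsk1* in WT mice 1, 2 and 3, and 27.9, 44.6 and 46.0 in Ube3am-/p+ mice. The mice numbered 1 were nearly equal, and the other mice of the genotypes stood far apart. The means were 20.9 ± 6.06 (SD, n = 3) and 39.5 ± 10.1 (SD, n = 3), with an exact permutation test of p = 0.1, two-sided.

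There were 0.371, 0.384 and 0.373 reads of *Scg5* per read of *Pcsk2* in WT mice, and 0.422, 0.431 and 0.427 in Ube3am-/p+ mice. These ratios lay close together within each genotype and did not overlap. The mean was 13.5% higher in Ube3am-/p+ mice, with an SD within the genotypes of 1.89% and 1.09% of the mean and a counting error of 3.25% to 3.95% per library (exact permutation test, two-sided p = 0.1). The spread between mice was thus below what counting alone gives, and is too small a guide to the error. After correction for GC content and transcript length the log2 difference of this ratio went from 0.18 to 0.05, and that of *Pcsk1n* to *Pcsk1* from 0.92 to 0.45. The antisense overlap of *Pcsk2* given above bears on the ratio of *Scg5* to *Pcsk2*. Of the 4 ratios computed, the other two, *Pcsk2* to *Pcsk1* and *Chga* to *Scg3*, overlapped between the genotypes (exact permutation test, two-sided p = 0.2 each).

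**Figure D3:**
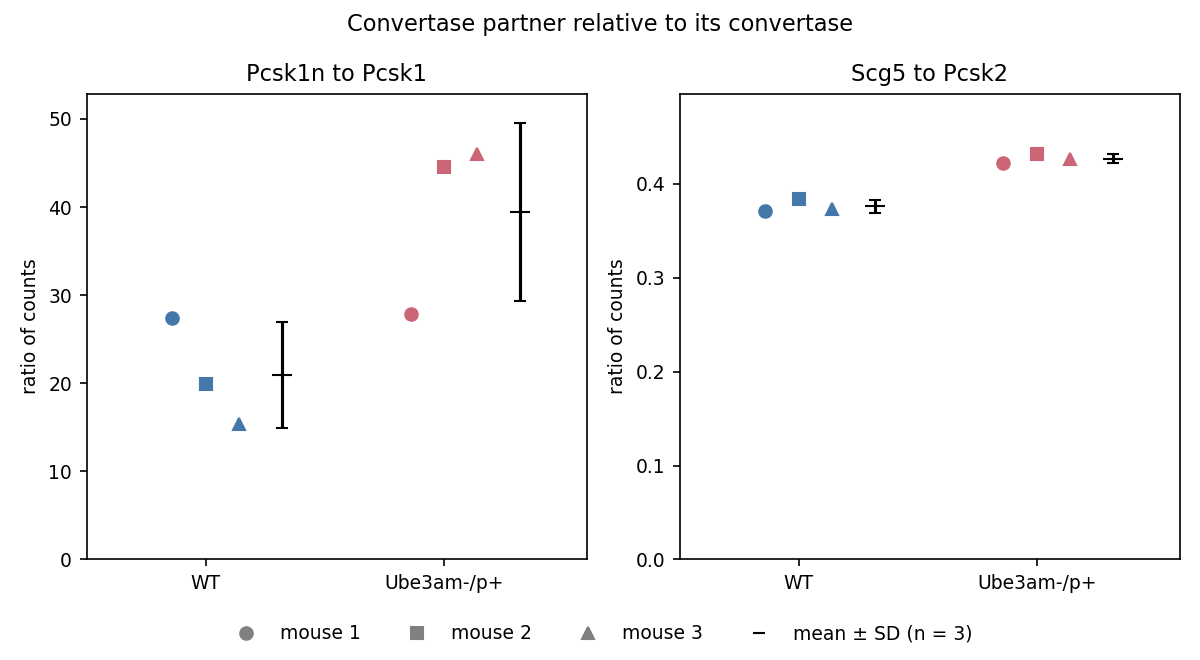
Reads of *Pcsk1n* per read of *Pcsk1* (left) and of *Scg5* per read of *Pcsk2* (right) in each mouse, with the mean ± SD (n = 3) beside each genotype and axes from 0. The left ratio is 27.4 in WT mouse 1 and 27.9 in Ube3am-/p+ mouse 1, and the right ratio stays between 0.371 and 0.384 in WT and between 0.422 and 0.431 in Ube3am-/p+ mice.

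Across all tested genes the fold change ran with the GC content of the transcript, and the members are set beside that relation. Tested genes were split into 5 nearly equal classes of GC content. In the class with the lowest (31% to 44%) the median log2 fold change was -0.24, and in the class with the highest (55.7% to 83.1%) it was 0.22. *Pcsk1*, with 40.6% GC, lay in the lowest class, and *Chga* (58.4%), *Vgf* (64.1%) and *Pcsk1n* (57.3%) in the highest. Within the WT group, too, *Chga*, *Chgb*, *Vgf* and *Pcsk1n* were highest in mouse 1 and lowest in mouse 3, and *Pcsk1* was lowest in mouse 1 and highest in mouse 3. Spearman's rho across 14201 genes between GC content and the deviation of a library from the mean was 0.045, -0.51 and -0.57 in WT mice and 0.059, 0.53 and 0.53 in Ube3am-/p+ mice, across genes that are not independent replicates. In mice 2 and 3 this relation and the genotype cannot be told apart.

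After each library was corrected for GC content and length, *Pcsk1n* was still called, at 0.36 ± 0.072 (SE, edgeR adjusted p = 0.0249), against 0.542% of the 14201 genes then tested. *Scg2*, whose transcript has 46.8% GC, went from 0.22 to 0.28 ± 0.066 (SE, edgeR adjusted p = 0.0554). *Chga* went to 0.28 (adjusted p = 0.165), *Chgb* to 0.34 (adjusted p = 0.598), *Vgf* to 0.05 (adjusted p = 0.813) and *Pcsk1* to -0.09 (adjusted p = 0.816). The median over the members went from 0.175 to 0.072.

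**Figure D4:**
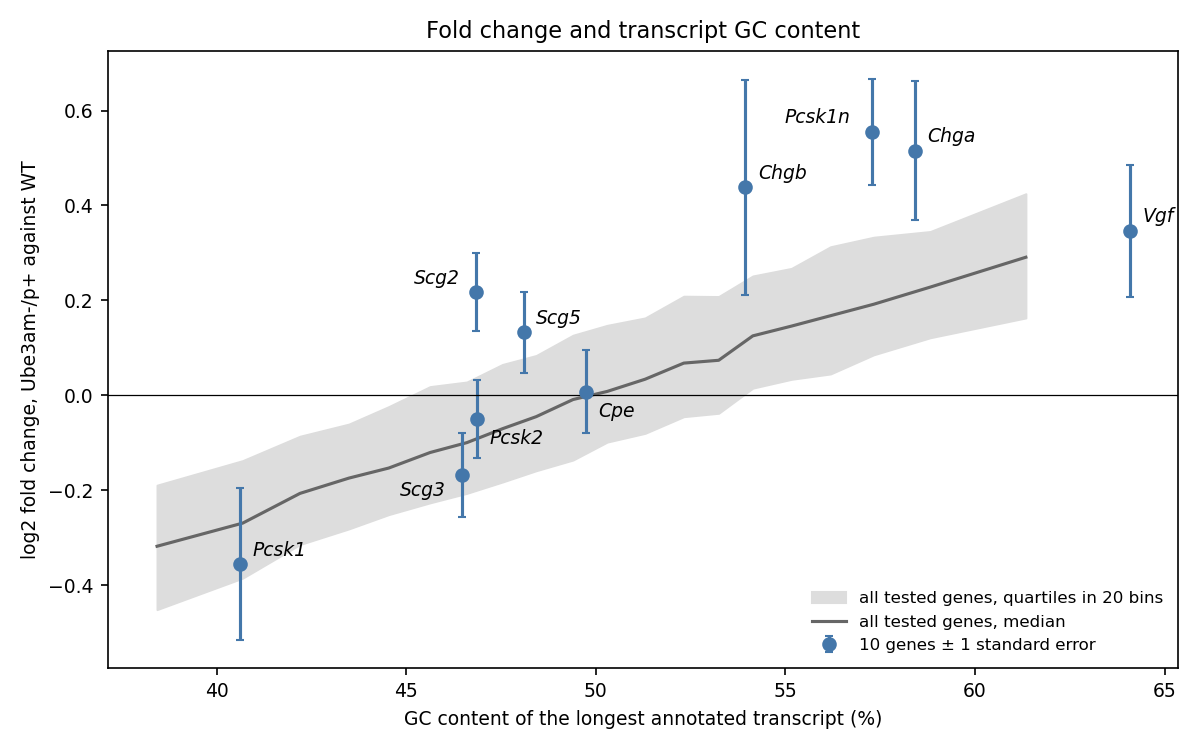
Log2 fold change between the genotypes (vertical axis) against transcript GC content in percent (horizontal axis) for the 10 genes, ± 1 standard error, over the median (line) and quartiles (grey band) of all tested genes in 20 bins of GC content. *Scg2*, *Scg5*, *Chgb*, *Chga* and *Pcsk1n* lie above the grey band, and *Pcsk1*, *Scg3*, *Pcsk2* and *Cpe* lie within it. *Vgf*, at 64.1% GC, lies to the right of the band, which ends at the median of the last bin (61.3%).

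Members were also compared by their pattern over the 6 libraries, as the root mean square distance of log2 CPM after centring each gene. *Chga* lay nearest to *Pcsk1n* (0.082), *Chgb* nearest to *Chga* (0.085), and *Vgf* nearest to *Chga* (0.089). *Scg2* and *Scg5* lay nearest to each other (0.066). *Pcsk1* was the farthest member from *Chga*, *Chgb*, *Scg2*, *Vgf* and *Pcsk1n*, at 0.342 to 0.595. The log2 CPM used here were not corrected for GC content. *Chga*, *Vgf* and *Pcsk1n* lie in the highest class of GC content, *Chgb* in the class below it and *Pcsk1* in the lowest. Distances to genes outside the members were not taken, and the part of GC content in these patterns was not tested.

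The members' promoters were searched because granin and convertase genes are known for cyclic AMP response elements, and because the series is on retinoic acid signalling, which acts through nuclear receptors. RefSeq windows from 250 bases before to 50 bases after the gene start (GRCm38.p6) matched 8 members, and *Vgf* and *Cpe* were not matched. The full element TGACGTCA was present in the windows of *Chgb*, *Scg2* and *Pcsk1*, against 2.03% of 27025 genes. Its core TGACG, searched on both strands and contained in the full element, was present in 7 of the 8, against 23.0% of genes, *Pcsk1n* being the exception. The nuclear receptor motif AGGTCA, searched on both strands, was in none of the 8 windows, against 18.1% of genes. A stretch of 30 bases around the element is shown for the 3 genes with the full element and for *Chga*, the granin with the largest fold change, 5′ to 3′ on the strand of the gene, with the element in capitals.
Chgb (chr2:132781559-132781588, plus strand): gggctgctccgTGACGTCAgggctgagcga
Scg2 (chr1:79440076-79440105, minus strand): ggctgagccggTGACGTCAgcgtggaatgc
Pcsk1 (chr13:75089768-75089797, plus strand): ccaggtagatcTGACGTCAagagatggctt
Chga (chr12:102554886-102554915, plus strand): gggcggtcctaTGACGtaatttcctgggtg

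The full element begins 72 bases before the start in *Chgb*, 68 in *Scg2* and 78 in *Pcsk1*, and the core begins 44 bases before the start in *Chga*. Of the 3 members with the full element, *Chgb* and *Scg2* had log2 fold changes of 0.44 and 0.22 and *Pcsk1* of -0.36, and *Pcsk1n*, with neither the element nor its core in this window, was at 0.56. The stretches of *Chgb* and *Scg2* lie before the RefSeq start but inside the bounds of the GENCODE M21 gene. These are matches of letters and not measured binding sites.

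The rest of the pathway was described by 4 lists. Of 16 other prohormone processing enzymes, 13 passed the filter on low counts and none was called by edgeR, with a median log2 fold change of -0.04. At an unadjusted p below 0.05 there were 2 of the 13 by edgeR, against 24.6% of all genes, and DESeq2 called 1, *Furin*, a convertase of the constitutive pathway, against 9.70%. The most abundant were *Ctsb*, a lysosomal cathepsin (518 ± 42.5 CPM in WT and 495 ± 19.4 CPM in Ube3am-/p+ mice, SD, n = 3), *Pam*, the peptide amidating enzyme (179 ± 12.4 and 167 ± 16.5 CPM), and *Cpd*, a carboxypeptidase of the trans-Golgi network (133 ± 14.1 and 121 ± 11.2 CPM).

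Of 30 genes of dense-core vesicle biogenesis and release, all were tested. Here 17 had a positive and 13 a negative log2 fold change, with a median of 0.03. At an unadjusted p below 0.05 there were 6 by edgeR, 2 higher and 4 lower in Ube3am-/p+ mice, against 24.6% of all genes. By adjusted p and fold 1 was called, against 2.01% of all genes. This was *Baiap3*, a protein of the Munc13 family that acts in dense-core vesicle traffic. Its counts were 58, 44 and 38 in WT and 91, 188 and 124 in Ube3am-/p+ mice, so that every Ube3am-/p+ mouse was higher. Its mean rose from 5.71 ± 0.979 to 12.9 ± 3.32 CPM (SD, n = 3 each). The fitted log2 fold change was 1.196 ± 0.21 (SE), with an edgeR adjusted p of 0.0362, and after the GC and length correction it was 0.99 (adjusted p = 0.0219, edgeR). As with *Pcsk1n*, the call was lost without WT mouse 2 (1.11), WT mouse 3 (1.13), Ube3am-/p+ mouse 2 (0.98) or Ube3am-/p+ mouse 3 (1.255), with edgeR adjusted p between 0.079 and 0.251, and DESeq2 gave it no adjusted p. Among the abundant genes, *Ptprn*, a transmembrane protein of the vesicle, had 539 ± 33.9 CPM in WT and 622 ± 44.2 CPM in Ube3am-/p+ mice (SD, n = 3 each). Its log2 difference, 0.22 (edgeR adjusted p = 0.139), went to 0.0026 with the correction. *Syt7*, a calcium sensor of release, and *Rab3a*, a vesicle GTPase, had log2 fold changes of 0.08 and 0.10 (adjusted p = 0.639 and 0.496, edgeR).

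Of 42 peptide precursors, the cargo of the same vesicles, 21 were tested and none was called by edgeR (8 at an unadjusted p below 0.05, 4 in each direction, against 24.6% of all genes), while DESeq2 called 1, *Cck*, against 9.70%. *Cck*, the cholecystokinin precursor of interneurons and some pyramidal cells, had 214 ± 46.0 CPM in WT and 282 ± 26.2 CPM in Ube3am-/p+ mice (SD, n = 3), or 0.42 on the log2 scale (edgeR adjusted p = 0.0851), and 0.14 with the correction. *Sst*, the somatostatin precursor, had 120 ± 6.39 CPM and 120 ± 7.07 CPM (SD, n = 3), and *Bdnf* 63.2 ± 4.74 CPM and 54.2 ± 2.26 CPM (SD, n = 3, adjusted p = 0.194, edgeR). Of the 12 immediate early genes, which share activity-dependent induction with *Vgf* and *Scg2*, none was called by edgeR or DESeq2 (4 at an unadjusted p below 0.05 by edgeR, 2 in each direction, against 24.6% of all genes). Of these 12 genes, 3 had a positive and 9 a negative log2 fold change. Their median was -0.07, and -0.20 with the correction. *Egr1* had a log2 fold change of 0.23 (adjusted p = 0.167), *Egr3* of 0.03 (adjusted p = 0.834) and *Arc* of -0.16 (adjusted p = 0.340, edgeR). *Arc* was called with the correction (-0.37, adjusted p = 0.0279, edgeR).

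Marker genes of the cells that hippocampal tissue can hold were summed in each library, and abundant markers weigh most in such sums. The 8 neuron markers summed to 5907 to 6438 CPM in WT and 5387 to 5765 CPM in Ube3am-/p+ mice, while the 10 members summed to 4625 to 4738 CPM and 4742 to 5392 CPM. The single neuron markers were mixed, 4 with a positive and 4 with a negative log2 fold change, among them *Snap25* at -0.23 and *Rbfox3* at 0.31. Their median was -0.06, and 0.065 after the GC and length correction. By edgeR none of the 8 was called (4 at an unadjusted p below 0.05, 2 in each direction, against 24.6% of all genes). DESeq2 called 2 with opposite signs, *Map2* (-0.35 by edgeR) and *Tubb3* (0.34 by edgeR), against 9.70%. The 7 interneuron markers summed to 582 to 611 CPM in WT and 513 to 545 CPM in Ube3am-/p+ mice, while 4 of them had a positive log2 fold change. Their median was 0.08, and -0.03 after the GC and length correction. None of these 7 was called by edgeR (3 at an unadjusted p below 0.05, 1 higher and 2 lower). DESeq2 called 1, which had a negative log2 fold change. The 9 markers of hippocampal excitatory neurons were all tested, at 1110 to 1172 CPM in WT and 1018 to 1112 CPM in Ube3am-/p+ mice. Of these, 2 had a positive and 7 a negative log2 fold change. None was called by edgeR (2 at an unadjusted p below 0.05, 1 in each direction), and DESeq2 called 2, which had opposite signs. The sum of astrocyte markers overlapped between the genotypes. The sums for oligodendrocytes, microglia and endothelium were lower in Ube3am-/p+ mice without overlap, but 3 of the 7, 3 of the 7 and 2 of the 6 single markers had a positive log2 fold change, and none was called by edgeR (3 in each list at an unadjusted p below 0.05). DESeq2 called 1, 1 and 2 of them. In bulk tissue fewer cells of a type and less RNA per cell cannot be told apart. Choroid plexus markers differed more within the genotypes than between them (101 to 2193 CPM in WT, 107 to 2279 CPM in Ube3am-/p+ mice). Meninges and fibroblast markers summed to 305 to 397 CPM in WT and 378 to 612 CPM in Ube3am-/p+ mice. Of these 8 markers, 7 had a positive and 1 a negative log2 fold change. Their median was 0.38, and 0.33 after the GC and length correction. By edgeR *Col1a1* was called up and *Pdgfra* called down, against 2.01% of all genes. At an unadjusted p below 0.05 there were 4 by edgeR, 3 higher and 1 lower, against 24.6%. The 6 pituitary hormone genes, the mark of a gland rich in granins, summed to at most 2.54 CPM in any library. The part of these cell types in the values of *Pcsk1n* and *Baiap3* was not tested.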

How the data were processed

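RNA from the hippocampus of 3 WT and 3 Ube3am-/p+ mice was sequenced, 1 library each, and the authors deposited raw counts for each gene symbol, neither normalized nor pooled. The submitters' processing notes name STAR 2.7.4a, HTSeq and mm10, the build also called GRCm38. The annotation, the strand setting and the filters are not given in the sources used here. Reads on no gene (54.07% to 55.05% of those listed), ambiguous reads and multiply aligned reads stayed out of library sizes. No library was a copy of another (chi-square per degree of freedom at least 3.78 for each pair). The lowest value was that of WT mouse 1 against Ube3am-/p+ mouse 1, a pair between the genotypes.

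Counts were analysed in R 4.3.3 with edgeR 4.0.16 (filterByExpr, TMM scaling, robust quasi-likelihood F test, genotype as the only factor, two-sided, Benjamini-Hochberg adjustment over the 14445 genes tested). CPM in the text are on total gene counts, and standard errors were derived from the fold change and F. Alternatives were DESeq2 1.42.0, other scaling factors and filters, a block for the replicate number, a correction of each library for transcript GC content and length (natural splines with 5 degrees of freedom each, 14201 genes with a GENCODE M21 transcript), and leaving out mice. The steps were tested on simulated data, in which an added GC gradient was the same in all libraries of a genotype. In the real data the mice numbered 1 showed little of it (Spearman's rho 0.045 in WT and 0.059 in Ube3am-/p+ mice). The simulation does not cover that pattern. The members and lists were chosen with earlier results of these data known. Named genes were *Ube3a*, all members and, from each further pathway list, the called genes and the 3 most abundant. *Furin*, *Map2*, *Tubb3*, *Snap25*, *Rbfox3*, *Col1a1* and *Pdgfra* fall outside this rule and were named after their values were seen, and genes that overlap a member were named for that overlap.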

Additional observations from a re-analysis of the deposited data

How the results depend on the processing

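The number of genes called, 290, was 272 to 399 with other scaling factors, with at least 10 counts in every library and without the fold threshold, where 1 member and 1 gene of the wider lists were called as before. With DESeq2 it was 967, with 2 members and 2 genes of the wider lists. Without a filter it was 1176, with 5 genes of the wider lists. Corrected for GC content and length, it was 77, with 2 genes of the wider lists. At an unadjusted p and the same fold it was 2832, with 4 members and 16 genes of the wider lists. Leaving out 1 mouse gave 0 to 2582 genes, 0 to 4 members and 0 to 12 genes of the wider lists. It gave 0 genes without WT mouse 2, WT mouse 3 or Ube3am-/p+ mouse 2 (2075, 2159 and 2128 at an unadjusted p below 0.05, edgeR), 2 without Ube3am-/p+ mouse 3, 1816 without Ube3am-/p+ mouse 1 and 2582 without WT mouse 1. Without the mice numbered 1 of both genotypes it was 4138, with 6 members and 17 genes of the wider lists. The cause of these changes was not tested.

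With a block for the replicate number, 0 genes, 0 members and 0 genes of the wider lists were called (2422, 4 and 14 at an unadjusted p below 0.05, edgeR), and with the block and the correction together 1 gene, 0 members and 0 genes of the wider lists. The deviations of same-numbered mice from their group means correlated at -0.285, -0.177 and -0.311, and those of differently numbered mice at -0.0093 to 0.288. Deviations within a group sum to 0 by construction, so these values cannot settle whether mice were paired. No pairing was assumed from the shared numbers. *Pcsk1n* had an edgeR adjusted p of 0.216 with the block and kept its direction in all 16 alternatives (log2 fold change 0.36 to 0.75).

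The direction turned for genes that were not called. With the correction, and with the correction and the block, *Pcsk2* was at 0.044 and 0.042, *Cpe* at -0.021 and -0.021, *Cpd* at 0.039 and 0.042, *Rab3a* at -0.089 and -0.090, *Sst* at -0.25 and -0.25, *Bdnf* at 0.039 and 0.041 and *Egr3* at -0.0025 and -0.0025. *Cpe* was at -0.011 with library sizes alone. Leaving out 1 mouse gave -0.085 to 0.013 for *Pcsk2*, -0.055 to 0.074 for *Cpe* and -0.024 to 0.067 for *Sst*. The ratio differences with the correction, chosen after seeing the data, were 0.45 for *Pcsk1n* to *Pcsk1* and 0.05 for *Scg5* to *Pcsk2*. *Pcsk1*, at 132 to 159 counts per library, is the member that depth limits most.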
